A study of Sus scrofa with 10 samples.

Results

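The genes described here are the splicing factor families that the porcine array could name: 86 genes of 6765 named ones, read from 142 probe sets. They were chosen by symbol, taking every gene whose symbol begins with PRPF, SRSF, HNRNP, SNRP, LSM and a digit, SF3A or SF3B, U2AF, RBM or SRRM. The name splicing genes is used below for this set, although some of it, such as RBM28, are no core splicing factors. Each gene was then read from its brightest probe set by mean log2 signal across the 10 arrays, which is the only measured value that entered the choice of probe set. The families themselves were picked with earlier results of these arrays known. They held 22 RBM, 17 HNRNP, 11 SRSF, 10 SNRP, 9 PRPF, 7 SF3, 6 LSM, 2 U2AF and 2 SRRM genes. One further probe set carried the symbols of both RBM14 and CTSF and was not used.

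The study compared sorted fractions of fibroblasts grown from fetal tissue, the head left out, of day 24 pig embryos from a Danish Landrace/Yorkshire x Duroc cross. Cells were cultured in DMEM with fetal calf serum on gelatin and split on magnetic beads with an antibody to SSEA-1, a carbohydrate of the cell surface carried by several embryonic and stem cell types. There were 5 SSEA1+ and 5 SSEA1- fractions, numbered 1 to 5 in each, with 1 Affymetrix array per fraction, and no other treatment set them apart. The series title speaks of 1 cell line, and the labels do not say whether replicates came from separate embryos or cultures, so p-values measure the spread between these fractions only.

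Pre-mRNA splicing removes introns on the spliceosome, a machine assembled anew on each intron from small nuclear ribonucleoproteins (snRNPs). U1 binds the 5′ splice site, the U2AF dimer and the U2 snRNP with its SF3A and SF3B complexes mark the 3′ end and the branch point, and the U4, U5 and U6 snRNPs join with the help of the PRPF proteins before catalysis. SR proteins and hnRNP proteins bind the transcript itself and, often with opposing effects, steer which splice sites are used.

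With 5 arrays a fraction, the number of arrays sets the precision. Array medians ran from 1.15 to 1.19 on the log2 scale, and between 69.3% and 72.5% of probe sets on an array lay above the background of 0.352, a level that 95% of 23 controls for absent sequences did not exceed. All 12 measured fibroblast markers of a list of 14, among them VIM, COL1A2 and PDGFRB, were above background on all 10 arrays, and their mean ran from 7.47 to 7.71 in SSEA1+ and from 7.51 to 7.69 in SSEA1-. COL1A2 was the 1 fibroblast marker past the threshold, higher in SSEA1+. Of other cell types, the markers above background on all 10 arrays were 4 of 8 epithelial, 3 of 7 endothelial, 1 of 6 haematopoietic, 2 of 4 erythroid, 2 of 6 muscle, 4 of 5 neural and 1 of 4 germ cell or pluripotent genes. CDH5, TEK, PTPRC, SPI1, CKM and DDX4 stayed below background on every array, and no member of these 7 lists passed the threshold. Each list's mean overlapped between the fractions, with ranges of 1.18 to 1.56 in SSEA1+ and 1.03 to 1.59 in SSEA1- for the epithelial genes.

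In the SSEA1+ fraction 19 of the 86 splicing genes fell and 1 rose, and 66 did not pass the threshold. SRSF3, an SR protein that also serves mRNA export, fell by 0.84 ± 0.09 (SE, n = 5 each), or 1.78-fold, and PRPF39, a protein associated with the U1 snRNP, fell by 0.81 ± 0.16. SRRM2, a large scaffold protein of nuclear speckles, rose 2.08-fold. Falls reached all the larger groups, with 5 PRPF, 4 RBM, 3 HNRNP, 3 SF3, 2 SRSF and 2 SNRP genes, while no LSM or U2AF gene passed. The fallen members were 22.1% of the 86, against 4.18% of all genes tested that were lower in SSEA1+, and the 1 risen member was 1.16%, against 3.21% of all genes that were higher. These counts come from limma over all probe sets with Benjamini-Hochberg adjustment and a threshold of 0.05.

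With the replicate number as a block in limma, which compares the fractions within each number, 29 members were lower and 3 were higher, SRRM2, HNRNPL and RBMS2. All 19 falls were among the 29, and these were 33.7% of the members against 8.62% of all genes, with 5.65% of all genes higher. Most differences were small: 4 of the 20 called members reached 1.5-fold, SRSF3, PRPF39, HNRNPDL and SRRM2. The median difference over the 86 was -0.14 on the log2 scale, against -0.01 over all genes, and 68 members (79.1%) read lower in SSEA1+, against 52.4% of all genes. In bulk samples such as these, fewer cells of a type and less RNA per cell cannot be told apart.

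**Figure D1:**
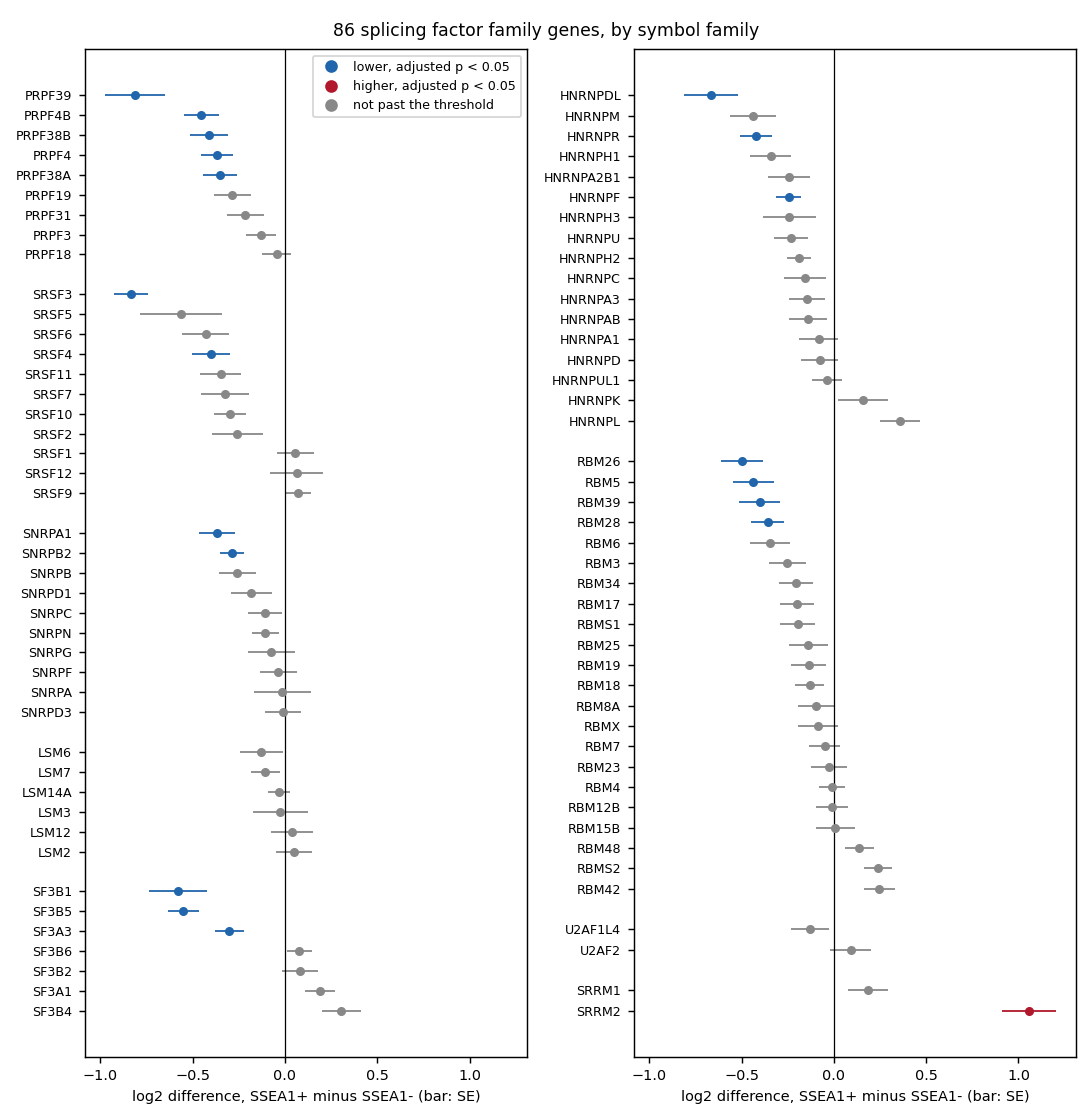
Difference in log2 signal, SSEA1+ minus SSEA1-, for the 86 splicing genes grouped by symbol family, with limma standard errors as bars and 5 arrays per fraction. Blue points are the 19 genes past the threshold and lower in SSEA1+, the red point is SRRM2, higher at 1.06, and the other 66 are grey.

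The plot of differences by family shows the members lying left of zero in most groups, with all 9 PRPF and all 10 SNRP genes reading lower and the SF3 and LSM genes on both sides. The share was similar among brighter genes. Among genes above background on all 10 arrays 5.23% were lower, against 22.4% of the 85 members that are, and among genes with a mean of at least 5.45, the members' median, 4.83% were lower against 20.9% of members. HNRNPU, the 1 remaining member, was above background on 9 arrays. The 5 SSEA1+ arrays lay wholly below the 5 SSEA1- arrays for 11 members (12.8%; 4.55% of all genes) and wholly above for 2, SRRM2 and SF3B4 (3.96% of all genes).

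Of the core snRNP proteins, the 10 SNRP genes had a median difference of -0.11, and the 2 that passed both encode proteins of the U2 snRNP. SNRPB2, the U2 B″ protein, gave log2 signals of 4.96, 4.88, 4.90, 5.01 and 4.95 in SSEA1+ replicates 1 to 5 and 5.20, 5.10, 5.22, 5.35 and 5.26 in SSEA1-. Every SSEA1+ array was below every SSEA1- array, although the gap between the groups was narrow. The fall was 0.29 ± 0.07 (limma, adjusted p = 0.0229). SNRPA1, the U2 A′ protein that binds next to it, read 5.12, 5.06, 5.34, 5.47 and 5.16 in SSEA1+ and 5.43, 5.47, 5.71, 5.82 and 5.55 in SSEA1-. The groups overlapped, with SSEA1+ replicate 4 above SSEA1- replicate 1, yet each SSEA1+ array was below its own numbered partner. SNRPA1 fell by 0.37 ± 0.10 (limma, adjusted p = 0.0458, and 0.00474 with the replicate block).

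The proteins of the Sm ring, which encircles the RNA of most spliceosomal snRNPs, gave smaller differences. SNRPB, the Sm B protein, differed by -0.26 ± 0.10 and passed only with the block (limma, adjusted p = 0.164, and 0.029 with the block), and it is named here after its values were seen. SNRPD1, SNRPD3, SNRPF and SNRPG did not pass, with differences from -0.18 to -0.01, nor did the U1 proteins SNRPA at -0.01 ± 0.16 and SNRPC at -0.11 ± 0.09. SNRPN, the imprinted relative of SNRPB, read -0.11 ± 0.07. The LSM genes, several of which form the ring on U6 and a cytoplasmic ring in mRNA decay, had a median of -0.03 with no call in either fit. LSM6 differed by -0.13 ± 0.12 (limma, adjusted p = 0.614) and LSM7 by -0.11 ± 0.08 (adjusted p = 0.507), the largest differences of the 6. LSM12 and LSM14A, the latter a protein of cytoplasmic P-bodies, match the symbol pattern without being part of the U6 ring.

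The SF3 genes divided, with 3 of 7 lower and 4 reading higher. SF3B5, a small subunit of SF3B, read 5.87, 5.59, 5.73, 5.73 and 5.66 in SSEA1+ and 6.22, 6.08, 6.24, 6.49 and 6.29 in SSEA1-. The highest SSEA1+ array lay below the lowest SSEA1- array. It fell by 0.55 ± 0.08, or 1.46-fold (limma, adjusted p = 0.00285). SF3A3, a subunit of SF3A, gave 6.40, 6.29, 6.36, 6.52 and 6.37 in SSEA1+ and 6.68, 6.50, 6.77, 6.83 and 6.65 in SSEA1-, so that only SSEA1+ replicate 4 lay above the lowest SSEA1- array. Its fall was 0.30 ± 0.08 (limma, adjusted p = 0.0361).

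SF3B1, the largest SF3B subunit, which holds the branch point duplex, was less even across replicates. Its SSEA1+ arrays read 5.94, 5.91, 5.49, 6.59 and 5.99 and its SSEA1- arrays 6.56, 6.54, 6.47, 6.40 and 6.85. Replicate 4 ran the other way, 0.19 higher in SSEA1+, and the other 4 pairs were lower. The difference was -0.58 ± 0.16 (limma, adjusted p = 0.047), and a second, dimmer probe set of SF3B1, whose fractions did not overlap, fell by 0.36 ± 0.09 (adjusted p = 0.0262) and was lower in all 5 pairs. SF3B4, another SF3B subunit, read 2.86, 2.42, 2.49, 2.44 and 2.47 in SSEA1+ and 2.25, 2.12, 2.39, 1.99 and 2.40 in SSEA1-. The SSEA1+ arrays were all above the SSEA1- arrays, but the difference of 0.31 ± 0.10 missed the threshold in limma (adjusted p = 0.109, and 0.0514 with the block), and it is named after its values were seen. SF3A1, SF3B2 and SF3B6 differed by 0.19 ± 0.08, 0.08 ± 0.10 and 0.08 ± 0.07. Of the U2AF genes, U2AF1L4, a relative of the small subunit, gave -0.13 ± 0.10 (limma, adjusted p = 0.556), and U2AF2, the large subunit that reads the polypyrimidine tract, 0.09 ± 0.11 (adjusted p = 0.731).

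The PRPF genes had the lowest median of the larger groups, -0.35, and 5 of 9 fell. PRPF39 read 2.05, 1.99, 2.11, 2.84 and 2.42 in SSEA1+ and 3.03, 2.84, 3.10, 2.98 and 3.53 in SSEA1-. SSEA1+ replicate 4, level with the lowest SSEA1- array, was the only one to reach the other group's range. The fall of 0.81 ± 0.16 was 1.76-fold (limma, adjusted p = 0.0118). PRPF4B, a kinase that phosphorylates proteins of the tri-snRNP, read 4.66, 4.74, 4.28, 4.80 and 4.68 in SSEA1+ and 5.10, 5.09, 5.02, 4.96 and 5.24 in SSEA1-, without overlap. SSEA1+ replicate 3 stood apart as the lowest of the 10. PRPF4B fell by 0.45 ± 0.10 (limma, adjusted p = 0.0162).

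PRPF4, a protein of the U4/U6 snRNP, gave 4.28, 4.16, 4.35, 4.50 and 4.18 in SSEA1+ and 4.52, 4.51, 4.76, 4.80 and 4.71 in SSEA1-. The groups were adjacent and did not overlap, and the fall was 0.37 ± 0.09 (limma, adjusted p = 0.0266). PRPF38A, which joins the spliceosome before activation, fell by 0.35 ± 0.09 from a mean of 5.04 ± 0.18 to 4.68 ± 0.10 (SD, n = 5 each; limma, adjusted p = 0.0379). Its relative PRPF38B fell by 0.41 ± 0.10 (limma, adjusted p = 0.0325), although replicate 4 differed by 0.02. Of the others, PRPF19, the ubiquitin ligase of the Prp19 complex, differed by -0.29 ± 0.10 and passed only with the block (limma, adjusted p = 0.118, and 0.0326 with the block); it is named after its values were seen. PRPF31, PRPF3 and PRPF18 read -0.22 ± 0.10, -0.13 ± 0.08 and -0.05 ± 0.08 and did not pass.

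Among the SR proteins, 8 of 11 read lower and 2 passed, SRSF3 and SRSF4. SRSF3 gave 8.04, 7.67, 7.98, 7.86 and 7.90 in SSEA1+ and 8.69, 8.47, 8.77, 8.86 and 8.85 in SSEA1-. The groups were far apart for this set of genes, at means of 7.89 ± 0.14 and 8.73 ± 0.16 (SD, n = 5 each), and the adjusted p in limma was 0.000401. SRSF4 read 4.76, 4.80, 4.76, 5.32 and 4.98 in SSEA1+ and 5.32, 5.22, 5.39, 5.28 and 5.42 in SSEA1-. Replicate 4 showed no fall, at 0.04, and the other 4 pairs were lower. The difference was -0.40 ± 0.10 (limma, adjusted p = 0.0373).

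SRSF5 had the second largest difference of the SR proteins, and its replicates did not move together. It read 4.42, 4.22, 4.16, 5.37 and 4.88 in SSEA1+ and 5.31, 5.00, 4.91, 4.92 and 5.74 in SSEA1-. Replicate 4 was higher in SSEA1+ by 0.46, and the difference of -0.56 ± 0.22 did not pass in limma (adjusted p = 0.173, and 0.0597 with the block). With the replicate block the SR proteins held 7 lower calls in place of 2. These were 63.6% of them in place of 18.2%, while the share of all genes lower also rose, from 4.18% to 8.62%. The 5 added, named after their values were seen, were SRSF7 at -0.32 (limma, adjusted p = 0.0115 with the block), SRSF10 at -0.30 (0.0168), SRSF6 at -0.43 (0.0178), SRSF11 at -0.35 (0.0217) and SRSF2 at -0.26 (0.0466). SRSF1, SRSF9 and SRSF12 read 0.06 ± 0.10, 0.07 ± 0.07 and 0.06 ± 0.14.

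The proteins SRRM1 and SRRM2 carry long arginine and serine repeats and act as splicing co-activators. SRRM2 read 5.51, 5.25, 5.33, 5.57 and 5.73 in SSEA1+ and 4.59, 4.46, 4.23, 3.96 and 4.85 in SSEA1-. Every SSEA1+ array was above every SSEA1- array, and the largest gap was in replicate 4, at 1.60. It rose by 1.06 ± 0.15 (limma, adjusted p = 0.00156). None of its other probe sets showed a rise of this size. The next brightest differed by 0.18 ± 0.07 (limma, adjusted p = 0.181). The other 3 differed by 0.07 to 0.10 and were dim, above background on between 1 and 5 of the 10 arrays. SRRM1 was higher in all 5 pairs, but by only 0.18 ± 0.11 on average (limma, adjusted p = 0.375). Replicate 4 gave most of it, at 0.67.

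**Figure D2:**
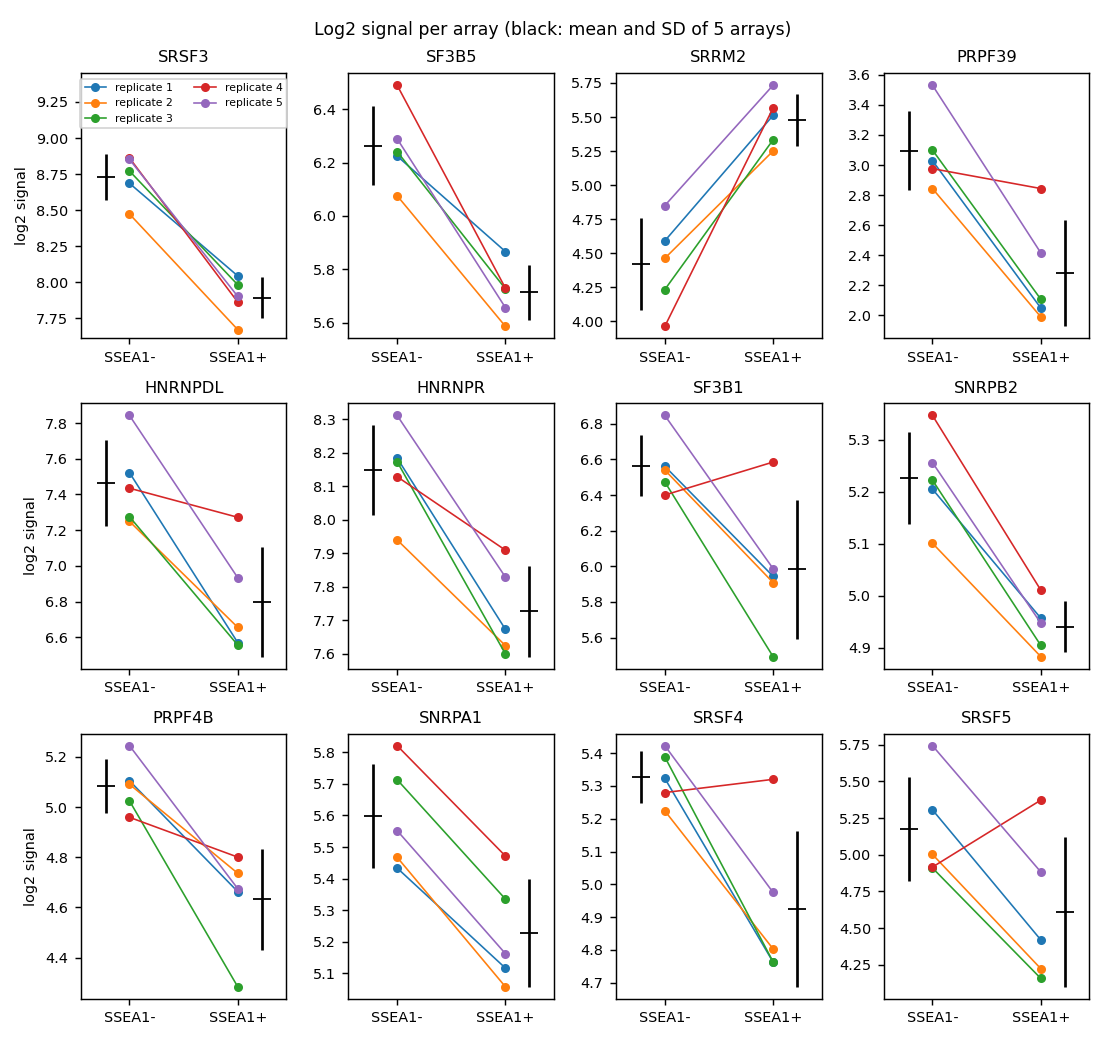
Log2 signal of 12 splicing genes on each of the 10 arrays, with lines joining the SSEA1- and SSEA1+ arrays of the same replicate number replicate 4 in red, and the mean and SD of each fraction in black. SRSF3, SF3B5 and SRRM2 separate the fractions in every pair, while SF3B1, SRSF4 and SRSF5 turn flat or upward in replicate 4.

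The plot of values by array shows how the same mean difference can come from 5 similar pairs or from 4. Among hnRNP proteins, which coat nascent transcripts, 15 of 17 read lower and 3 passed. HNRNPR gave 7.67, 7.62, 7.60, 7.91 and 7.83 in SSEA1+ and 8.18, 7.94, 8.17, 8.13 and 8.31 in SSEA1-. All SSEA1+ arrays lay below all SSEA1- arrays, by the smallest margin between SSEA1+ replicate 4 and SSEA1- replicate 2. HNRNPR fell by 0.42 ± 0.09 (limma, adjusted p = 0.0135), and by 0.91 ± 0.13 on its second probe set (adjusted p = 0.00219).

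HNRNPDL, a close relative of the AU-rich element binding protein HNRNPD, read 6.57, 6.66, 6.56, 7.27 and 6.93 in SSEA1+ and 7.52, 7.25, 7.28, 7.44 and 7.84 in SSEA1-. SSEA1+ replicate 4 passed the lowest SSEA1- array, and the fall of 0.67 ± 0.15 was 1.59-fold (limma, adjusted p = 0.0179). Its second probe set fell by 0.42 ± 0.10 (adjusted p = 0.025). HNRNPF, which binds runs of guanines, was tight within each fraction, at 8.12 ± 0.07 in SSEA1+ and 8.36 ± 0.08 in SSEA1- (SD, n = 5 each). The arrays did not overlap, and the fall of 0.24 ± 0.07 was the smallest among the 19 (limma, adjusted p = 0.0485). HNRNPM, with the second largest difference of the family, gave -0.44 ± 0.12 (limma, adjusted p = 0.0554, and 0.0175 with the block), with replicate 4 at 0.01. HNRNPH1 differed by -0.34 ± 0.11 and passed only with the block (adjusted p = 0.0219). HNRNPL, a reader of CA repeats, went the other way, at 0.36 ± 0.11 (limma, adjusted p = 0.0663, and 0.0125 with the block). HNRNPH1 and HNRNPL are named after their values were seen. The abundant classical members HNRNPA1, HNRNPA2B1, HNRNPC and HNRNPD read -0.08 ± 0.11, -0.25 ± 0.11, -0.15 ± 0.11 and -0.08 ± 0.10. HNRNPK read 0.16 ± 0.14 on its brightest probe set and -0.18 ± 0.08 on its other one. None of these passed the threshold, and they were not picked by the naming rule.

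The RBM symbol names RNA-binding proteins of several kinds, and 4 of 22 fell. RBM26, a zinc finger protein linked to nuclear RNA decay, read 4.64, 4.81, 4.61, 4.95 and 4.74 in SSEA1+ and 5.28, 5.13, 5.22, 4.99 and 5.64 in SSEA1-. The groups came close in replicate 4, at -0.03, without overlapping. It fell by 0.50 ± 0.11 (limma, adjusted p = 0.0200), and another of its probe sets fell by 0.53 ± 0.10 (adjusted p = 0.0115). RBM5, a regulator of alternative splicing of apoptosis genes, fell by 0.44 ± 0.11 (adjusted p = 0.0348). Its replicate 4 values were both 5.66. RBM39, an SR-related protein close to U2AF2 in sequence, fell by 0.40 ± 0.11 (limma, adjusted p = 0.0487) and by 0.43 ± 0.08 on its second probe set (adjusted p = 0.00589). RBM28, a nucleolar protein of ribosome assembly and no core splicing factor, fell by 0.36 ± 0.09 (limma, adjusted p = 0.0299).

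RBM6, a relative of RBM5, differed by -0.34 ± 0.11 and passed only with the block (limma, adjusted p = 0.0255). RBMS2 was the 1 RBM gene higher with the block, at 0.24 ± 0.08 (limma, adjusted p = 0.0374); it carries the prefix but belongs to another family of single-strand binding proteins. Both are named after their values were seen. RBM8A, the Y14 protein of the exon junction complex, read -0.10 ± 0.10 on its brightest probe set and fell by 0.45 ± 0.10 on another (limma, adjusted p = 0.0196). The remaining RBM genes did not pass in either fit, among them RBM3, a cold-induced protein, at -0.25 ± 0.10.

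Second probe sets gave a partial check on other stretches of the same transcripts. Of the 86 genes, 34 had more than 1 probe set, which gave 56 others, 45 of them with a mean above background. Of these 45, 33 had the sign of the gene's brightest probe set, and 10 passed the threshold, all lower. By their brightest probe sets, 4.18% of all genes were lower and 3.21% higher. The share over all probe sets was not counted. For called members 11 of 12 shared the sign and 7 passed, those of HNRNPR, HNRNPDL, RBM26, RBM39, RBM5, SF3B1 and PRPF38B, the last falling by 0.39 ± 0.09 (limma, adjusted p = 0.0245). The other 3 that passed belonged to RBM8A, SRSF10 and SRSF11. The 1 with the opposite sign was that of SNRPA1, close to background, at 0.09 ± 0.11 (limma, adjusted p = 0.735). A further probe set of RBM26 read -0.20 ± 0.09 and one of RBM39 -0.02 ± 0.09, and among members not called LSM6 read -0.26 ± 0.19 and SRRM1 -0.07 ± 0.12 on a second probe set, none past the threshold. SRSF3, SF3B5 and SRSF4 had 1 probe set each, and the second of PRPF39 was below background on all 10 arrays. With the replicate block 8.62% of all genes were lower and 5.65% higher. Of the 45, 14 were then lower and 3 higher, those of SRSF1, HNRNPH2 and HNRNPA2B1, chosen for mention after their values were seen. SRSF1 read 0.34 ± 0.10 there (limma, adjusted p = 0.0599, and 0.0164 with the block), against 0.06 on its brightest probe set. HNRNPH2 read 0.44 ± 0.14 (adjusted p = 0.0943, and 0.0452 with the block) against -0.19, and HNRNPA2B1 0.25 ± 0.12 (adjusted p = 0.257, and 0.0300 with the block) against -0.25.

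By replicate number, the median difference of the 86 was -0.22, -0.14, -0.16, -0.03 and -0.25 in pairs 1 to 5, and 65, 61, 64, 45 and 72 of them read lower. Of all genes, 50.1%, 50.4%, 49.8%, 56.5% and 51.8% read lower in these pairs. In pair 4 the members, at 52.3%, thus read lower less often than all genes, whose median there was -0.05, whereas in the other pairs they read lower more often, at 70.9% to 83.7%. In all 5 pairs 31 members were lower (36.0%, against 16.4% of all genes). Higher in all 5 pairs were 6 of the 86 members, beside 852 of the 6765 genes. The 19 fallen members were all lower in pairs 1, 2, 3 and 5 and 15 of them in pair 4. The 4 exceptions were SF3B1, SRSF4, PRPF38B and RBM5, whose pair 4 differences ran from 0.00 to 0.19.

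**Figure D3:**
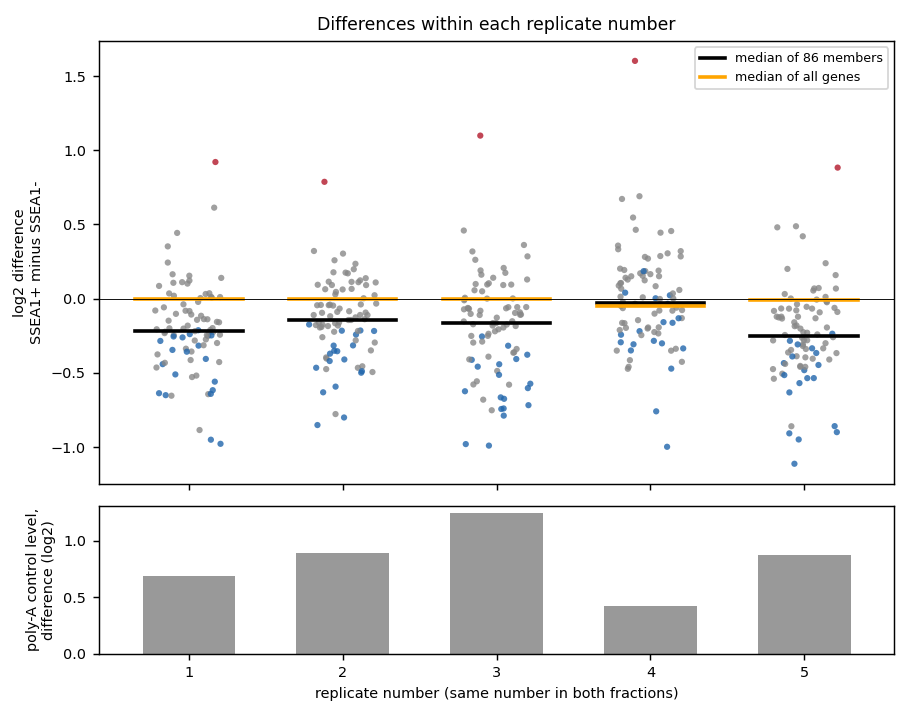
Differences in log2 signal, SSEA1+ minus SSEA1-, within each of the 5 replicate numbers for the splicing genes, beside the median of all genes and the difference in poly-A control level. The members' median was -0.03 in pair 4, beside -0.05 for all genes, and between -0.25 and -0.14 in the other pairs.

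The poly-A controls moved with the fractions. These are bacterial transcripts added to the RNA before labelling, and relative to the hybridisation controls, which are added after it, they read -3.13, -3.36, -2.66, -3.38 and -3.45 in SSEA1+ and -3.82, -4.25, -3.91, -3.80 and -4.32 in SSEA1- on the log2 scale. The hybridisation controls themselves were also higher in SSEA1+ without overlap, at 6.90 ± 0.16 against 6.48 ± 0.16 (SD, n = 5 each; exact permutation p = 0.00794), a difference of 0.42, and the poly-A controls alone differed by 1.24. The groups did not overlap in the relative level either, and its difference was 0.82 (exact two-sided permutation test, p = 0.00794, the smallest this test can give; adjusted p = 0.0119 over 6 control measures). By pair it was 0.69, 0.89, 1.25, 0.42 and 0.87. Pair 4 had the smallest control difference and also the members' median of smallest size, -0.03. Pair 3 had the largest control difference, but its members' median of -0.16 was smaller in size than those of pairs 1 and 5, at -0.22 and -0.25. Whether the controls and the members moved together over the pairs was not tested. The difference between 3′ and 5′ probe sets, a sign of RNA integrity and labelling, was 0.10 higher in SSEA1+ for EEF1A, without overlap (exact permutation p = 0.00794), but -0.06 for ACTB (p = 0.302) and -0.07 for GAPDH (p = 0.151).

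With the poly-A level as a covariate in limma no member passed, against 0.0887% of all genes, and the same held with the replicate block added, against 0.0148%. At an unadjusted p under 0.05 there were 10 members (11.6%) with the covariate, against 14.6% of all genes, and 8 (9.30%) with the block as well, against 11.4%. The control level did not overlap between the fractions, so these values are extrapolated, and fraction and control level cannot be told apart by the design. The members' median was -0.11 with the covariate and -0.02 with the block too, where 64 and 45 members read lower.

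The genes differed in what the covariate left. SRSF3 was at -1.01 ± 0.17 with it and -0.96 ± 0.24 with the block as well, and SF3B5 at -0.70 ± 0.16 and -0.72 ± 0.24. SRRM2 stayed the highest, at 1.49 ± 0.25 and 1.53 ± 0.32. In the covariate fit SNRPA1, SNRPB2, PRPF4, PRPF38A and SF3A3 were likewise as large as without it or larger, from -0.52 to -0.31. With the block as well these 5 ran from -0.35 to -0.21, and PRPF4 was smaller by over 1.5 times than without the covariate, at -0.22 ± 0.22 beside -0.37. By contrast 11 of the 20 called members shrank by more than 1.5 times. SF3B1 was at 0.03 ± 0.23, RBM5 at -0.03 ± 0.17, PRPF38B at -0.04 ± 0.16, PRPF4B at -0.05 ± 0.13 and HNRNPDL at -0.26 ± 0.25. PRPF39 was at -0.43 ± 0.29, and at -0.04 ± 0.32 with the block.

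**Figure D4:**
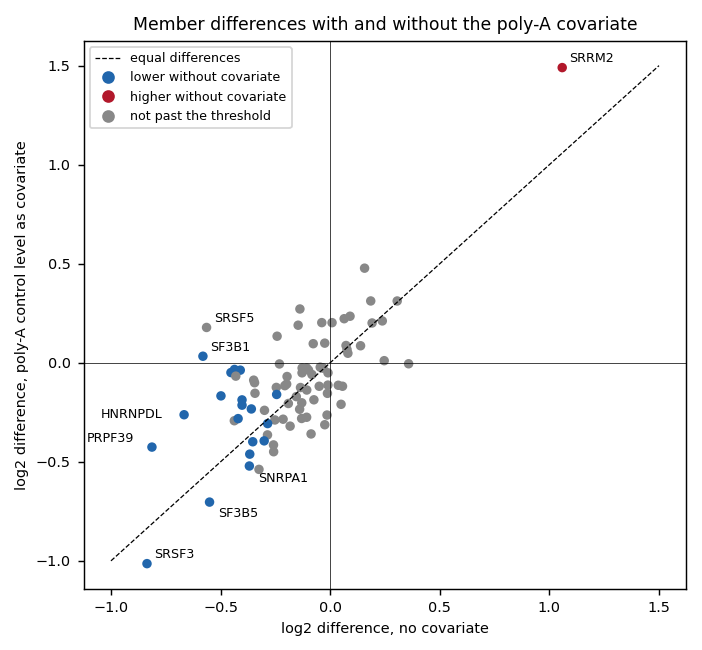
Difference in log2 signal of each of the 86 splicing genes without (horizontal) and with (vertical) the poly-A control level as a covariate in limma, the dashed line marking equal values. SRSF3, SF3B5 and SRRM2 lie beyond the line, away from zero, and SF3B1 lies at 0.03 on the vertical axis.

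The plot of differences with and without the covariate shows these kinds of member side by side, with none past the threshold on the vertical axis. Most calls were also lost in some fits with 1 array left out. Particular arrays and the smaller number of arrays were not told apart in these fits. Without SSEA1+ replicate 4, 25 members were lower (29.1%; 5.03% of all genes), and without SSEA1- replicate 2, 20 (23.3%; 6.28%). The count was 7 without SSEA1+ replicate 1 or SSEA1- replicate 3 or 5, 8 without SSEA1+ replicate 2, 3 or 5, 10 without SSEA1- replicate 1 and 11 without SSEA1- replicate 4. In these 8 fits the members' share ran from 8.14% to 12.8% and that of all genes from 2.03% to 2.84%. Without both arrays of replicate 1, 2, 3, 4 or 5 it was 2, 12, 3, 20 and 2. The members' shares were then 2.33%, 14.0%, 3.49%, 23.3% and 2.33%, against 0.99%, 4.11%, 1.08%, 3.95% and 0.976% of all genes.

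SRSF3, SF3B5 and SRRM2 passed in every one of the 10 single-array and 5 pair leave-outs, with adjusted p in limma of at most 0.00747, 0.0293 and 0.0153. For SRRM2 these are values of its brightest probe set, and none of its others passed with all arrays. PRPF39, PRPF4B and HNRNPR passed without any single array but not without replicate 1 or 5, and PRPF39 and HNRNPR not without replicate 3, at up to 0.0750, 0.0910 and 0.0868. Among single arrays HNRNPDL was lost without SSEA1+ replicate 1 and RBM26 without SSEA1+ replicate 1 or 5, and both were lost without both arrays of replicate 1, 3 or 5 (up to 0.109 and 0.112). The other 12 passed in 5 or fewer of the 10 and were all lost without SSEA1- replicate 3 or 5, with highest adjusted p from 0.119 for SNRPB2 to 0.218 for RBM39. Among single arrays SF3B1 held only without SSEA1+ replicate 4, and HNRNPF in no case (up to 0.165). Scaling mattered less. Repeating quantile normalization gave 13 lower members, 15.1% against 3.24% of genes. It gave 3 higher members, SRRM2, SF3B4 and RBMS2, beside 273 of 6765 genes higher. All 13 were among the 19, and those lost were HNRNPF, PRPF38A, RBM39, SF3B1, SNRPA1 and SRSF4.

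**Figure D5:**
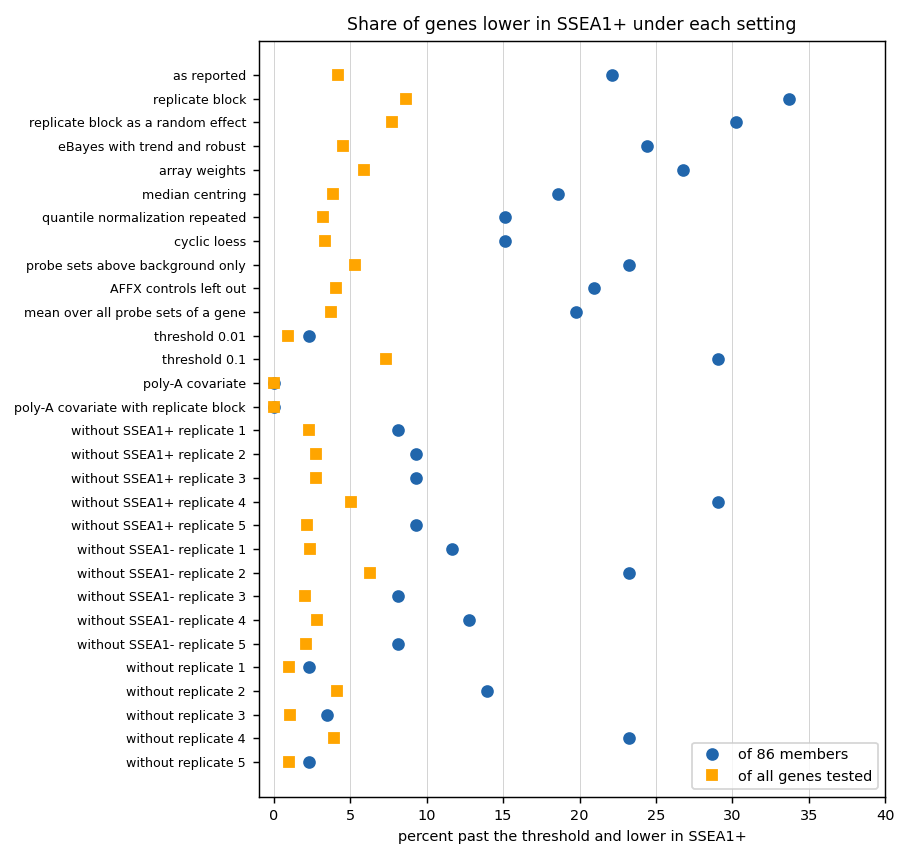
Percent of the 86 splicing genes (circles) and of all genes tested (squares) past the threshold and lower in SSEA1+, under the reported setting and each alternative. The share of members was 22.1% as reported, 33.7% with the replicate block and 0 with the poly-A covariate.

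The plot of shares by setting places the members above all genes in every setting except those with the covariate, where no member passed. Outside these symbol families, 5 lists of 195 further splicing genes gave 114 that were measured. Of them 14 fell (12.3%; 4.18% of all genes), 4 rose (3.51%; 3.21% of all genes) and 96 did not pass, and their median was -0.10. With the replicate block 22 were lower (19.3%; 8.62% of all genes) and 7 higher (6.14%; 5.65% of all genes), and with the poly-A covariate none passed. In the list of spliceosome factors 3 of 42 fell, or 7.14%, not far above the 4.18% of all genes. DDX46, the helicase that acts on the U2 snRNP, fell by 0.57 ± 0.11 (limma, adjusted p = 0.00802), MFAP1, a partner of PRPF38A in the spliceosome, by 0.40 ± 0.08 (adjusted p = 0.0105), and CDC5L, a core protein of the Prp19 complex, by 0.31 ± 0.06 (adjusted p = 0.0106). DDX46 and CDC5L lost their calls without replicate 1, 3 or 5, and MFAP1 without replicate 1 or 3.

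Of 12 genes of Sm and snRNP assembly 2 fell (16.7%, against 4.18% of all genes). SNUPN, which carries snRNPs back into the nucleus, fell by 0.30 ± 0.07 (limma, adjusted p = 0.0218). CLNS1A, a chaperone of Sm proteins, fell by 0.33 ± 0.08 (limma, adjusted p = 0.0268). Of 8 genes of the exon junction complex and nonsense-mediated decay 2 fell (25%, against 4.18% of all genes). UPF3B, which connects the junction complex to decay, read 2.73, 2.96, 2.26, 3.81 and 3.10 in SSEA1+ and 3.99, 3.68, 4.08, 3.90 and 4.20 in SSEA1-. All 5 pairs were lower, with pair 4 close to level at -0.09. It fell by 1.00 ± 0.22, or 1.99-fold (limma, adjusted p = 0.0172), more than any member of the families, and read -0.27 ± 0.34 with the poly-A covariate. MAGOH, a core protein of the junction complex, fell by 0.28 ± 0.08 (adjusted p = 0.0467).

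Of 20 SR kinases and speckle proteins 2 fell (10%, against 4.18% of all genes). BCLAF1 fell by 0.40 ± 0.11 (limma, adjusted p = 0.0407) and WTAP, a subunit of the RNA methylation complex, by 0.28 ± 0.07 (adjusted p = 0.0439). The 32 other splicing regulators moved both ways, with 5 lower (15.6%, against 4.18% of all genes) and 4 higher (12.5%, against 3.21%). MATR3, a nuclear matrix protein, gave 6.73, 6.82, 6.79, 6.95 and 6.80 in SSEA1+ and 7.25, 7.13, 7.21, 7.20 and 7.34 in SSEA1-. Its fall of 0.41 ± 0.07 showed no overlap (limma, adjusted p = 0.00491). PCBP2, a poly(C) binding protein, gave 9.50, 9.34, 9.35, 9.37 and 9.43 in SSEA1+ and 9.09, 9.03, 9.01, 8.87 and 9.08 in SSEA1-. It rose by 0.38 ± 0.07, again without overlap (adjusted p = 0.00645), and both calls held in all 15 leave-outs. With the probe sets of each gene averaged MATR3 kept its call and PCBP2 lost it.

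YBX3, a cold shock domain protein, rose by 0.26 ± 0.06 (limma, adjusted p = 0.0193) and CELF2, a regulator of alternative splicing, by 0.61 ± 0.15 (adjusted p = 0.0286), while PSPC1, a paraspeckle protein, fell by 0.50 ± 0.13 (adjusted p = 0.0355). The 4 others past the threshold, PTBP3 higher and DAZAP1, SUGP2 and SYNCRIP lower, had adjusted p between 0.0415 and 0.0495 and are named after their values were seen. Most of these calls were lost in some single-array leave-outs. Whether this came from the array left out or from the smaller number of arrays was not tested. CELF2, BCLAF1 and MAGOH passed in 2 of the 10 single-array leave-outs, WTAP in 1, CLNS1A in 3 and PSPC1 in 4. SNUPN passed in 7, YBX3 in 8 and UPF3B in 9, all but that without SSEA1+ replicate 1.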

How the data were processed

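The deposited log2 signals, 1 per probe set and array, come from RMA per the submitters' processing notes. Which version, and which background setting, is not given in the sources used here. Of 24123 probe sets, 10099 carried 1 gene symbol in the platform annotation, 198 several and 13826 none; the 86 members matched a RefSeq gene table by Entrez identifier, and no symbol changed. No further normalization was applied.

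Fractions were compared with limma 3.58.1 in R 4.3.3 (lmFit, eBayes) over all probe sets, 188 array controls included, with Benjamini-Hochberg adjustment over all of them and a threshold of 0.05. Errors beside differences are limma standard errors. Fold changes are 2 to the power of the log2 difference. The procedure was tested on simulated data. Array signals of different genes were not compared.

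The main fit held the fraction only, without pairing. Replicate numbers were treated as pairs in the pair differences, the pair leave-outs and the block fits. Arrays of the same number deviated together from their fraction's mean, with correlations of 0.214, 0.580, 0.356, 0.119 and 0.247 in number order. SSEA1+ replicate 4 correlated better, at 0.314, with SSEA1- replicate 5. The block was an alternative fit. Other alternatives were a random block, trend and robust settings, array weights, 3 scalings, filters, a gene's mean over probe sets, other thresholds, the poly-A covariate and leaving out arrays or pairs.

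Named were all members past the threshold, the 2 with the largest difference in each family, their second probe sets above background, and up to 5 called genes per further list. The members, lists and tests were chosen with earlier results of these data known.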

Additional observations from a re-analysis of the deposited data

Results flagged for a closer look

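Among 86 groups of 5 arrays tested for a lone value, 4 held an array far from the other 4 of its fraction. Chance gives about 1 group in 20, so about as many were found as chance gives. PRPF4B read 4.28 in SSEA1+ replicate 3, and 4.66 to 4.80 in the other SSEA1+ arrays. U2AF2, which lay close to background, read 1.10 in SSEA1+ replicate 4 against 0.48 to 0.52 in the others, and 0.41 in SSEA1- replicate 1 against 0.55 to 0.59. BCLAF1 read 6.54 in SSEA1- replicate 2, with 6.83 to 6.93 in the other SSEA1- arrays.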

How the results depend on the processing

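The reported counts were 19 members lower and 1 higher, and 14 and 4 for the further lists. With the replicate block, a paired fit, they were 29 and 3, and 22 and 7; all 20 member calls held and no call of the members was lost. A random block gave 26 (30.2%, against 7.72% of all genes) and 4 (373 of 6765 genes were higher), and 24 lower in the lists. Trend and robust settings gave 21 lower members (24.4%, against 4.51% of all genes), without SF3B1, and 2 higher. Array weights gave 23 lower (26.7%, against 5.91%) and 2 higher (lists: 22 lower). Repeated quantile normalization gave 3 higher members (lists: 9 lower). Cyclic loess gave 13 lower (15.1%, against 3.31%) and 2 higher (lists: 8 lower). Of the 6765 genes, 224, 288, 273 and 273 were higher in these settings, in that order. A threshold of 0.01 left 2 members lower (2.33%, against 0.931% of all genes) and, in the lists, 2 lower and 1 higher. At 0.1, 25 members were lower (29.1%, against 7.33%) and 3 higher (359 of 6765 genes were higher), with 24 list genes lower. Averaging each gene's probe sets left 0 list genes higher, so that PCBP2, YBX3, CELF2 and PTBP3 lost their calls. The poly-A covariate, with or without the replicate block, left 0 in each count, and with both the members' median was -0.019.

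Leaving out 1 array or pair gave 2 to 25 members lower and 1 to 2 higher, and 1 to 21 and 1 to 4 in the lists. Of the 6765 genes, 66 to 425 were then lower and 49 to 261 higher. The members' median ran from -0.19 to -0.13 and the poly-A difference from 0.69 to 0.93. With the poly-A covariate SF3B1 turned to 0.033 and SRSF5 to 0.18. With the block added, differences turned to 0.14 for HNRNPM, 0.34 for LSM6, 0.14 for PRPF38B, 0.087 for PRPF4B, 0.28 for RBM5, 0.52 for SF3B1, 0.17 for SRSF4, 0.50 for SRSF5, 0.49 for UPF3B and 0.0062 for BCLAF1. U2AF2 turned to -0.029 without SSEA1+ replicate 4 and -0.023 without replicate 4, over leave-outs reaching 0.13. The cause of these changes was not tested. Signal near background limits U2AF2 and HNRNPU.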
